A study of Mus musculus with 7 samples.

Results

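Oligodendrocyte progenitor and proneural genes were followed as 8 named genes, Olig1, Olig2, Nkx2-2, Pdgfra, Cspg4, Ptprz1, Gpr17 and Bcas1, out of 37620 gene identifiers in each table. The genes were listed by name, all 8 were in the tables, and all 8 were among the 16068 genes kept for testing after a filter on low counts. RNA had been sequenced from 7 brain tumours of nude mice, each with 1 library. The 4 GSC1 tumours came from mouse glioblastoma stem-like cells labelled lgT/Ras, and the 3 GSC2 tumours from cells labelled shp53, Nf1-/- and CDK4. Both lines derive from subventricular zone neural stem cells, were kept in neural stem cell culture for 10 to 15 passages and were implanted in the brain at 50000 cells per animal; the labels give no age or sex of the animals. Each genotype was present as 1 line, so genotype and line cannot be told apart. Nude mice lack mature T cells but keep their own oligodendrocyte lineage, whose reads are mouse reads like those of the implanted cells and were counted with them.

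Oligodendrocyte progenitors are dividing cells that spread through the brain and give rise to myelin-forming oligodendrocytes. Olig1, Olig2 and Nkx2-2 encode transcription factors of this lineage, and Pdgfra, Cspg4 and Ptprz1 encode proteins of the progenitor surface. Gpr17 marks cells that have committed to differentiate, and Bcas1 marks oligodendrocytes that are forming myelin. In human glioblastoma several of these genes belong to the proneural expression class, in which PDGFRA and OLIG2 are high. Pdgfra is also expressed by fibroblasts of the meninges and vessels, Cspg4 by pericytes, and Ptprz1 by astrocytes and radial glia. In a bulk tumour, fewer cells of a type and less RNA per cell cannot be told apart.

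The libraries held 18643155 to 32643408 reads on genes, and 71 to 7489 reads on each of the 8 genes. Levels are given in CPM, a gene's reads relative to library size, with library sizes scaled by TMM. Stem cell genes were present in every tumour, with Sox2 between 70.7 and 148 CPM in GSC1 and between 129.97 and 199 CPM in GSC2. So were genes of normal brain. A myelin score, the mean log2 CPM of 11 genes of mature oligodendrocytes, had values of 5.67, 4.36, 9.10 and 7.69 in the GSC1 tumours (replicates 1 to 4), against 6.46, 7.996 and 8.21 in the GSC2 tumours (replicates 1 to 3). Long genes (transcripts from 8000 bases up) and short ones (up to 2000 bases) were set against the mean of all tumours. The long median minus the short median was -0.40, -0.36 and -0.70 on the log2 scale in GSC1 replicates 3 and 4 and GSC2 replicate 3. In the other 4 libraries it was 0.02 to 0.64. The 3 libraries with the lowest values, a fixed number, are called the short-biased libraries. Because Ptprz1, Cspg4 and Pdgfra have longest transcripts of 8068, 8121 and 6834 bases, and the other 5 genes 2120 to 5195 bases, the fits between the lines were also computed with the length trend removed. Ratios and correlations were not.

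Of the 3 transcription factor genes, Olig1 and Nkx2-2 varied 5.23-fold and 4.82-fold between tumours and Olig2 2.00-fold. In the order of the replicates, Olig1 had 74.4, 50.6, 225 and 136 CPM in the GSC1 tumours, against 92.1, 188 and 265 CPM in the GSC2 tumours. The lines overlapped, with the highest and lowest tumours 5.23-fold apart and GSC1 replicates 1 and 2 below all the others. The mean was 121 ± 77.7 CPM in GSC1, against 182 ± 86.5 CPM in GSC2 (SD, n = 4 and n = 3), a log2 fold change of GSC1 over GSC2 of -0.58 (SE 0.57). Nkx2-2, a homeobox gene needed for oligodendrocyte differentiation, was the least counted of the 3, at 3.45, 2.61, 9.10 and 4.33 CPM in GSC1, against 8.09, 12.6 and 8.22 CPM in GSC2. GSC1 replicate 3 lay within the GSC2 range and the other 3 GSC1 tumours lay below it. The log2 fold change of -0.98 (SE 0.48) was the largest of the 8 genes in size. Olig2, a factor of the lineage that is also used by dividing progenitors, was at 53.9, 45.5, 55.8 and 38.1 CPM in GSC1, against 45.4, 63.4 and 76.2 CPM in GSC2. GSC2 replicate 1 lay inside the GSC1 range, and the log2 fold change was -0.35 (SE 0.26). Olig1 and Olig2 are neighbours on chromosome 16, 41095 bases apart in GRCm38, and the ratio of Olig1 to Olig2, with 0.5 CPM added to each level, was 1.38, 1.11, 4.00 and 3.53 in GSC1 and 2.02, 2.95 and 3.46 in GSC2.

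Upstream sequences are shown for Nkx2-2, which varied between tumours, and for Olig2 and Pdgfra, which varied least, as context for members with unlike patterns. Each run is bases 250 to 101 before the RefSeq start, in GRCm38.p6 and in the gene's own direction, and capitals mark matches of the E-box CANNTG, the letters that basic helix-loop-helix factors such as the OLIG proteins recognise. The windows are chr2:147186503-147186652 on the minus strand for Nkx2-2, chr16:91225300-91225449 on the plus strand for Olig2 and chr5:75152001-75152150 on the plus strand for Pdgfra.
Nkx2-2: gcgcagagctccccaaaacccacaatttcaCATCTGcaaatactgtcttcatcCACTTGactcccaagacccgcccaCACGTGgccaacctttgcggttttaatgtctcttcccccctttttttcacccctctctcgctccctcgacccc
Olig2: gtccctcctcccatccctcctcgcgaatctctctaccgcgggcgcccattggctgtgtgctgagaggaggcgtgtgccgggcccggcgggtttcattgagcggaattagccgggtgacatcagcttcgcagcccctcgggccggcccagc
Pdgfra: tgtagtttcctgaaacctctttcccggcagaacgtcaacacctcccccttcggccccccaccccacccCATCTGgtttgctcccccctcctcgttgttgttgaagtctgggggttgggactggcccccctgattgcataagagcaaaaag
The Nkx2-2 window held 3 matches, the Pdgfra window 1 and the Olig2 window 0. Of 32851 windows of the same 150 bases over all RefSeq starts, 49.3% held at least 1 match. The SOX motif AACAAT, searched on both strands, was in 6.31% of all windows and in 0 of these 3. A match is a run of letters and was not tested as a binding site. Windows were available for 5 of the 8 genes. Those of Ptprz1 and Cspg4, not shown, held 0 E-box matches each, and these genes varied 3.67-fold and 2.75-fold between tumours. A link between matches and variation was not tested.

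Among the surface protein genes, Pdgfra was steady, Cspg4 was highest where myelin genes were lowest, and Ptprz1 had a lower mean in GSC1. Pdgfra, the receptor for PDGF-A and the growth signal of progenitors, was at 69.4, 71.1, 67.1 and 57.7 CPM in GSC1, against 60.2, 92.8 and 53.5 CPM in GSC2. All 4 GSC1 values lay between those of the GSC2 tumours, the highest tumour was 1.73-fold above the lowest, and the log2 fold change was -0.05 (SE 0.25). Cspg4, which encodes the NG2 proteoglycan, was at 31.1, 40.7, 23.3 and 14.8 CPM in GSC1, against 29.4, 29.9 and 15.4 CPM in GSC2. Its 3 lowest values were in the short-biased libraries, and the lines overlapped (log2 fold change 0.14, SE 0.40). Ptprz1, a receptor phosphatase that binds pleiotrophin, was at 71.5, 73.3, 136 and 176 CPM in GSC1, against 136, 263 and 174 CPM in GSC2. GSC1 replicates 1 to 3 were below every GSC2 tumour, replicate 3 only just, and replicate 4 was within their range (log2 fold change -0.74, SE 0.40).

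The stage genes Gpr17 and Bcas1 had the widest spread of the 8. Gpr17, a G protein-coupled receptor gene, was at 8.08, 4.23, 25.7 and 15.1 CPM in GSC1, against 6.82, 30.3 and 13.7 CPM in GSC2. The lines overlapped, with a 7.18-fold span over the 7 tumours and a log2 fold change of -0.35 (SE 0.70). Gpr17 lies within Lims2 on the opposite strand, and Lims2 had 1.91 to 14.6 CPM in GSC1 and 3.26 to 9.68 CPM in GSC2. Since the strand setting of the counting is not given in the sources used here, reads of the pair cannot be told apart where the genes overlap. Bcas1 was at 52.4, 22.8, 138 and 91.2 CPM in GSC1, against 105, 171 and 144.3 CPM in GSC2, a 7.52-fold span. Only GSC1 replicate 3 reached the GSC2 range, and the means were 76.2 ± 50.1 CPM in GSC1, against 140.3 ± 33.1 CPM in GSC2 (SD, n = 4 and n = 3), a log2 fold change of -0.88 (SE 0.55). Antisense genes overlap Nkx2-2 and Bcas1 and reached at most 0.874 and 0.451 CPM.

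**Figure D1:**
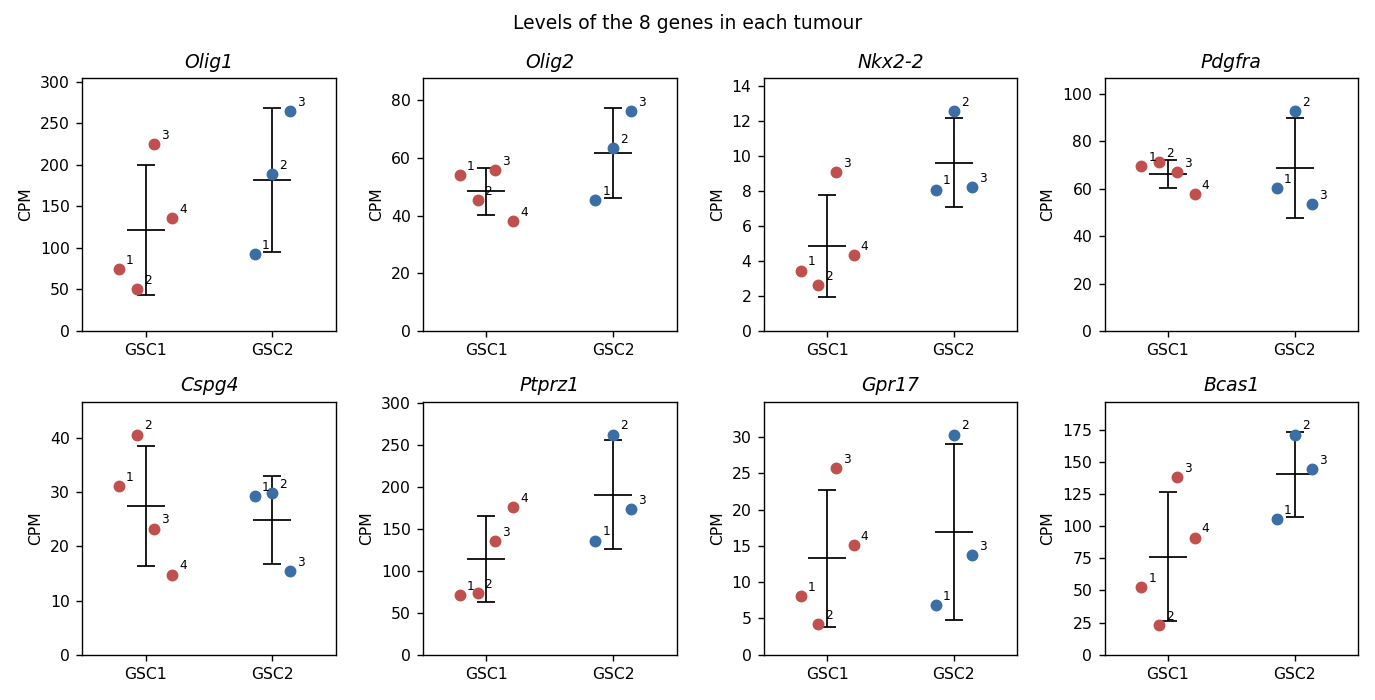
CPM of each of the 8 genes in the 4 GSC1 tumours (red) and the 3 GSC2 tumours (blue), with replicate numbers, the group mean as a wide bar and the SD as an error bar; each panel starts at 0. Pdgfra lies between 53.5 and 92.8 CPM in all 7 tumours, while Bcas1 runs between 22.8 and 171 CPM.

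Between the lines, 7 of the 8 genes had a negative log2 fold change, with lower averages in GSC1, and Cspg4 had a positive one. The sign was not stable for 3 of them: Pdgfra turned positive in 5 of 19 alternatives, Gpr17 in 1 (0.37 without GSC2 replicate 2), and Cspg4 turned negative in 4. The median over the 8 was -0.47, against 0.03 over the 16068 genes tested, of which 46.3% were negative. None of the 8 passed edgeR's quasi-likelihood test after Benjamini-Hochberg adjustment, with an adjusted p of 0.999886 for each, and 0% of all genes passed. At an unadjusted p under 0.05 the count was 0 of 8 beside 4.21% of all genes, and the smallest unadjusted edgeR p in this fit was 0.0770 for Nkx2-2. That count depended on the fit. In limma-voom Nkx2-2 had an unadjusted p of 0.0354, where 717 of 16068 genes had one under 0.05. With replicate number as a block, Ptprz1 had an unadjusted edgeR p of 0.0327, where 825 of 16068 genes were under 0.05. In none of the 8 were the values of the lines apart without overlap, which was so for 5.58% of all genes. DESeq2 called 0 of the 8 and 1.19% of all genes. None of the 8 differences passed after adjustment in edgeR with no covariate or in DESeq2, which does not show that the lines have equal levels. On simulated counts the edgeR test recovered 0% of 2-fold changes, and all 8 folds here were smaller than 2-fold.

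With a brain score as a covariate, the mean of the myelin score and a like score of 11 neuron genes, Bcas1 had the smallest p of the 8. At equal brain score its log2 fold change was -0.94 (SE 0.17, edgeR adjusted p = 0.0549), and the fit called 0 of the 8 genes and 0.61% of all genes. After a length offset was added for every library, Bcas1 was -0.90 (SE 0.17) with an edgeR adjusted p of 0.0445, 1 of the 8 genes called beside 1.37% of all genes. The number of all genes called in these fits changed with the tumour left out. That call was kept without GSC1 replicate 1 (adjusted p = 0.0465, beside 331 of 15767 genes) and without GSC2 replicate 3 (adjusted p = 0.0479, beside 153 of 16502). It was lost without any of the other 5 tumours, named here with the edgeR adjusted p and the number of all genes called: GSC1 replicate 2 (0.146, 40 of 15786), GSC1 replicate 3 (0.114, 37 of 15686), GSC1 replicate 4 (0.106, 137 of 15823), GSC2 replicate 1 (0.194, 2 of 16520) and GSC2 replicate 2 (0.0767, 116 of 16317). The fold stayed between -0.99 and -0.76. In the fit with both terms Nkx2-2 was at -0.97 (SE 0.31), Olig1 at -0.49 (SE 0.20), Ptprz1 at -0.48 (SE 0.19) and Olig2 at -0.29 (SE 0.22), with edgeR adjusted p between 0.147 and 0.520. Gpr17 was at -0.10 (SE 0.26), Pdgfra at 0.14 (SE 0.16) and Cspg4 at 0.24 (SE 0.22). The covariate is measured in the same libraries, so these values describe the lines at equal brain score and are no separate evidence.

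Without the 3 short-biased libraries the folds of 7 genes were larger in size and that of Olig2 smaller (-0.13, SE 0.27). They were -1.87 (SE 0.49) for Bcas1, -1.77 (SE 0.45) for Nkx2-2, -1.59 (SE 0.76) for Gpr17, -1.46 (SE 0.35) for Ptprz1, -1.16 (SE 0.42) for Olig1, 0.28 (SE 0.24) for Cspg4 and -0.12 (SE 0.28) for Pdgfra. None of the 8 passed in that edgeR fit of 2 GSC1 and 2 GSC2 tumours (lowest adjusted p = 0.150), in which 0.348% of all genes were called. The 2 GSC1 tumours it keeps have the lowest myelin scores of all 7, at 5.67 and 4.36, and the GSC2 tumours it keeps have 6.46 and 7.996. Myelin content and line cannot be told apart there, since both GSC1 scores lie below both GSC2 scores. With the myelin score alone as a covariate, a step added after seeing the data, Bcas1 was at -0.72 (SE 0.19, edgeR adjusted p = 0.0796) and Olig1 at -0.29 (SE 0.20), and 0 of the 8 genes were called beside 3.35% of all genes.

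**Figure D2:**
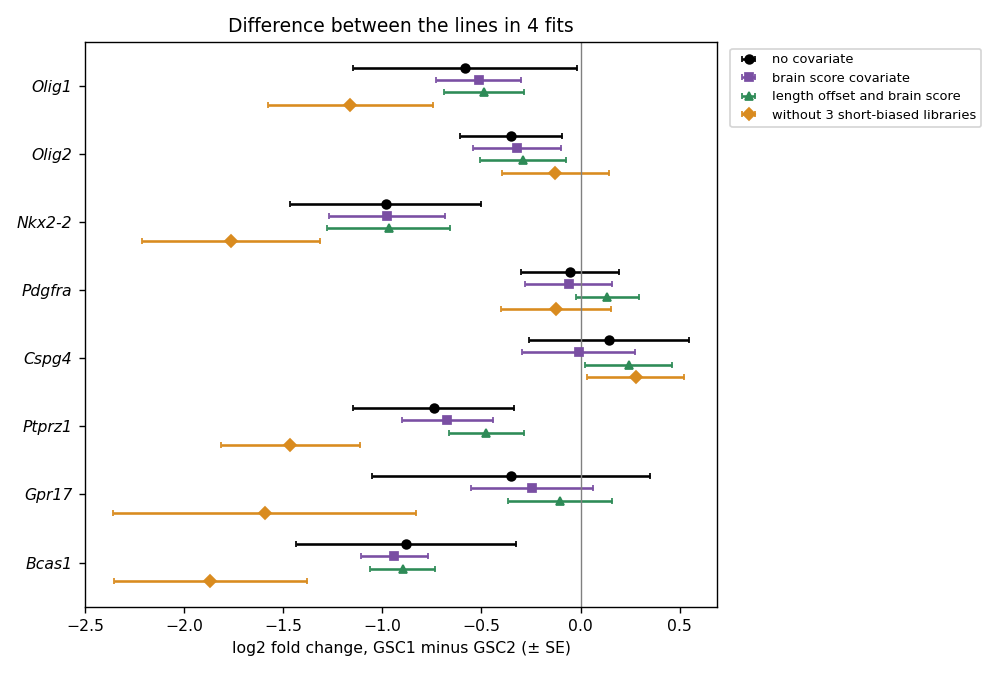
Log2 fold change of GSC1 over GSC2 with its SE for each of the 8 genes in 4 edgeR fits: all 7 tumours with no covariate, with the brain score, with the length offset and the brain score, and without the 3 short-biased libraries. Values left of 0 are lower in GSC1; Bcas1, Nkx2-2, Ptprz1, Olig1, Olig2 and Gpr17 lie left of 0 in all 4 fits, and Pdgfra and Cspg4 lie between -0.12 and 0.28.

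Levels of different genes were compared as CPM per kb of the longest transcript. Olig1 led at 56.2 ± 36.0 CPM per kb in GSC1 and 84.1 ± 40.0 CPM per kb in GSC2 and was above Bcas1 in 7 of 7 tumours. Bcas1 followed at 25.8 ± 17.0 in GSC1 against 47.5 ± 11.2 in GSC2, and then came Olig2 at 19.1 ± 3.22 in GSC1 against 24.4 ± 6.13 in GSC2, Ptprz1 at 14.2 ± 6.33 in GSC1 against 23.7 ± 8.04 in GSC2 and Pdgfra at 9.70 ± 0.873 in GSC1 against 10.1 ± 3.07 in GSC2, all in CPM per kb. Each of Bcas1, Olig2 and Ptprz1 exceeded the next gene in the order in 5 of 7 tumours, so these neighbours were not separated beyond the spread. Pdgfra exceeded Nkx2-2 in 7 of 7 tumours. Nkx2-2, Cspg4 and Gpr17 formed the lowest group, between 2.30 and 3.38 CPM per kb in GSC1 and between 3.07 and 4.54 CPM per kb in GSC2, and changed places between tumours.

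Of the 8 genes, only Olig1 had a relation with the myelin score that passed after adjustment, by Pearson r alone. Olig1 rose with the score over the 7 tumours (Pearson r = 0.961, exact permutation p = 0.000794, adjusted p = 0.0254 over 32 relations). Its Spearman rho was 0.964 (exact permutation p = 0.00278, adjusted p = 0.0889), which did not pass after adjustment. The 2 tumours with scores farthest from the median were GSC1 replicates 1 and 2, which had the lowest scores. Without these 2 tumours r of Olig1 was 0.876. With values centred within each line r was 0.968 (exact permutation p = 0.00694, adjusted p = 0.0741). That p is the smallest the arrangements within lines allow, so over 32 relations no lone one could pass there. The relation passed without GSC2 replicate 3 and did not without any of the other 6 tumours, with r between 0.933 and 0.989 when single tumours were left out. Bcas1 (r = 0.911, exact permutation adjusted p = 0.0656), Gpr17 (r = 0.905, exact permutation adjusted p = 0.0656), Nkx2-2 (r = 0.790, exact permutation adjusted p = 0.142) and Ptprz1 (r = 0.769, exact permutation adjusted p = 0.168) had positive values that did not pass. Their rho values, in the same order, were 0.821, 0.786, 0.857 and 0.50 (exact permutation adjusted p between 0.171 and 0.371). Centred within lines, their r values were 0.968, 0.902, 0.882 and 0.793 (exact permutation adjusted p between 0.0741 and 0.182). The centred value of Bcas1 was thus as high as that of Olig1. Without the 2 farthest tumours r was 0.526 for Bcas1, 0.806 for Gpr17, 0.218 for Nkx2-2 and 0.0861 for Ptprz1, so the values for Nkx2-2 and Ptprz1 rest on those tumours. Olig2 (r = 0.422) and Pdgfra (r = -0.107) had small values, and Cspg4 had a negative one (r = -0.689, exact permutation adjusted p = 0.172) that was -0.265 without the 2 farthest tumours.

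Against the scores of neurons, astrocytes and mitosis 0 of the 24 relations of the 8 genes passed after adjustment. Gpr17 had r of 0.874 with the neuron score and 0.890 with the astrocyte score (exact permutation adjusted p = 0.0800 for both). For the mitosis score the signs were turned, with r of -0.742 for Gpr17 and -0.706 for Olig1 (exact permutation adjusted p = 0.168 for both), against 0.674 for Cspg4 (exact permutation adjusted p = 0.173). Centred within lines, r with the mitosis score was -0.947 for Olig1 and -0.939 for Bcas1 (exact permutation adjusted p = 0.0741 for both). Centred r of Bcas1 was 0.945 with the neuron score and 0.932 with the astrocyte score (exact permutation adjusted p = 0.0741 for both). The 4 scores come from the same libraries and are not separate readings. The least number of tumours for a tested correlation was set at 6. Values of r with 2 tumours left out rest on fewer and were given without a test. No r was computed within the 3 short-biased libraries or the other 4. Their myelin scores were 7.69 to 9.10 and 4.36 to 7.996, and the part of transcript length in these relations was not tested.

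**Figure D3:**
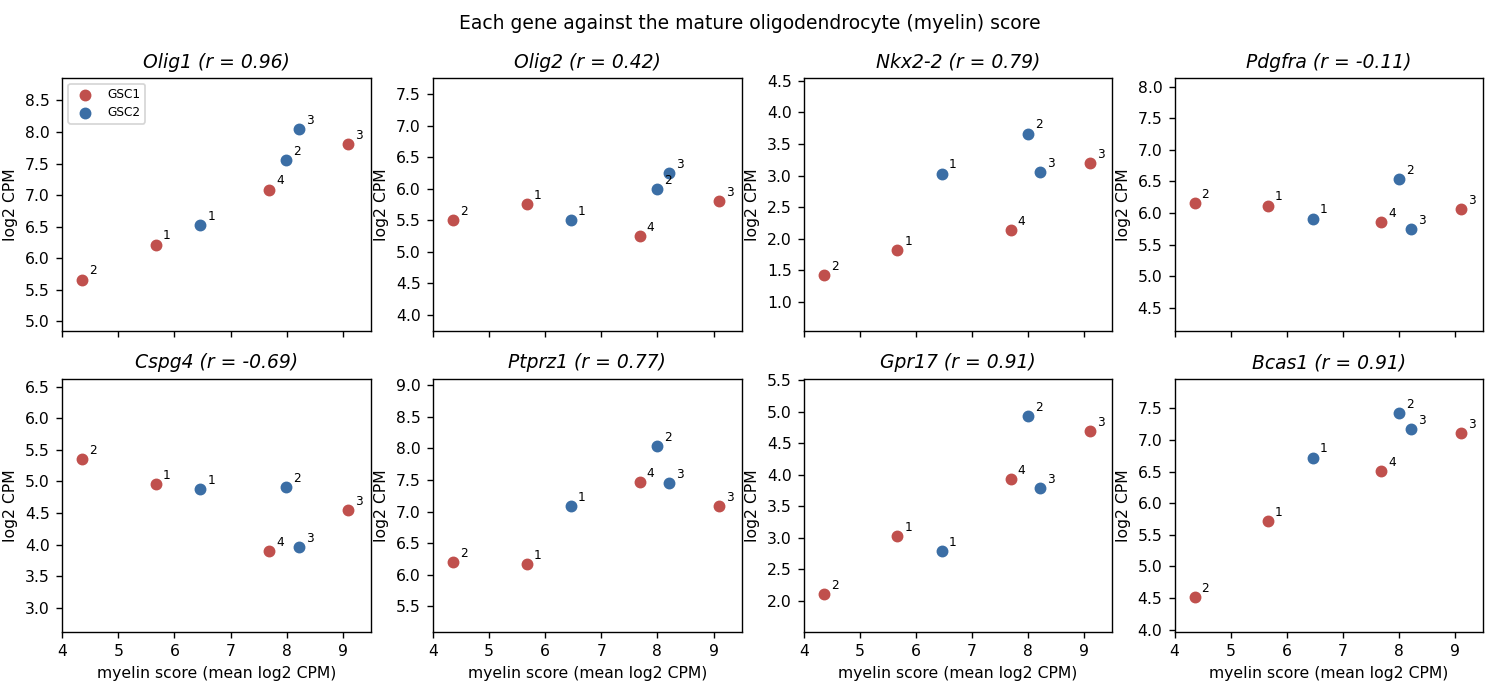
Log2 CPM of each of the 8 genes against the myelin score, the mean log2 CPM of 11 mature oligodendrocyte genes, in 4 GSC1 tumours (red) and 3 GSC2 tumours (blue) with replicate numbers; all panels span 4 log2 units. Olig1 climbs with the score (r = 0.961) and Pdgfra is flat (r = -0.107). Cspg4 has a negative r of -0.689, or -0.265 without GSC1 replicates 1 and 2, which have the lowest scores.

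The genes also split by how they varied with each other. Tumours called most extreme in a gene are the 2 farthest from its median, which can lie at the same end. For Nkx2-2 these were GSC1 replicates 1 and 2, its lowest tumours. Of 28 pairs, 2 passed after adjustment. Nkx2-2 and Bcas1 varied together (Pearson r = 0.928, exact permutation p = 0.000397, adjusted p = 0.0111; rho 0.964, adjusted p = 0.0778), with r = 0.894 after the 2 tumours most extreme in Nkx2-2 were left out. Olig1 and Bcas1 also did (r = 0.899, exact permutation p = 0.00298, adjusted p = 0.0417; rho 0.857, adjusted p = 0.191), with r = 0.847 after the 2 most extreme in Olig1 were left out. Centred within lines the r values were 0.894 and 0.893 (exact permutation adjusted p = 0.194 for both). The smallest p the arrangements allow is 0.00694, so no lone pair could pass over 28. The relation of Nkx2-2 and Bcas1 passed without GSC1 replicate 3 or GSC2 replicate 3 and did not without any of the other 5 tumours (r between 0.921 and 0.967), and that of Olig1 and Bcas1 did not pass without any 1 of the 7 (r between 0.842 and 0.957). Among Olig1, Gpr17, Bcas1, Nkx2-2 and Ptprz1 all 10 pairs had r between 0.758 and 0.928. After the 2 tumours most extreme in the first gene of a pair were left out, the range was 0.344 (Nkx2-2 and Ptprz1) to 0.943 (Olig1 and Gpr17), with 0.409 for Nkx2-2 and Gpr17 and 0.577 for Gpr17 and Bcas1. Pdgfra and Cspg4 had r = 0.647 with each other (exact permutation adjusted p = 0.260), or 0.127 with the 2 tumours most extreme in Cspg4 left out, and Cspg4 had negative values with all 6 of the other genes, between -0.702 for Olig1 and -0.134 for Olig2. With the 2 tumours most extreme in Nkx2-2 left out, Cspg4 and Nkx2-2 turned from negative (r = -0.270) to positive (r = 0.729). Olig1 and Olig2, the neighbours on the chromosome, had r = 0.616 (exact permutation adjusted p = 0.306).

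**Figure D4:**
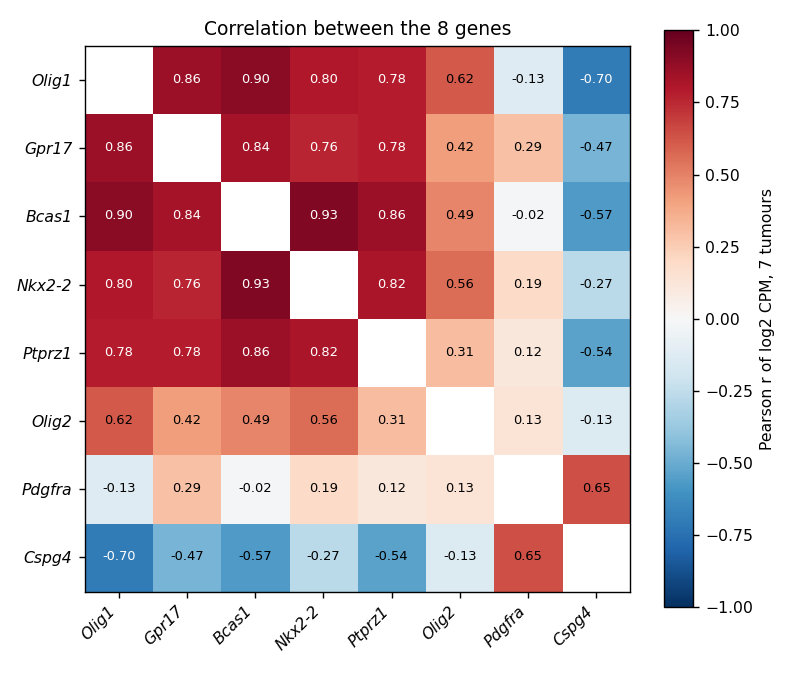
Pearson r of log2 CPM over the 7 tumours for the 28 pairs of the 8 genes, red for positive and blue for negative values. Olig1, Gpr17, Bcas1, Nkx2-2 and Ptprz1 form a block with r between 0.758 and 0.928, and Cspg4 is positive with Pdgfra only.

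Ratios were taken within each library, again with 0.5 CPM added, so that the scaling of libraries largely cancels. A length trend does not cancel between genes of unlike length, such as Bcas1 (2952 bases) and Pdgfra (6834 bases). Its part in the ratios was not tested. The ratio of Bcas1 to Pdgfra, a later against an earlier gene of the lineage, was 0.756, 0.325, 2.06 and 1.58 in GSC1 and 1.75, 1.84 and 2.68 in GSC2. GSC1 replicates 1 and 2 were the 2 tumours below 1. The mean log2 ratio was -0.08 ± 1.19 in GSC1 and 1.04 ± 0.34 in GSC2 (SD, n = 4 and n = 3), a difference of -1.12 (two-sided exact permutation p = 0.229, adjusted p = 0.771 over 5 ratios). Without GSC1 replicate 2 that difference was -0.60, and that of the log2 ratio of Olig1 to Olig2 was -0.03, against -0.35 with all tumours. The ratio of Gpr17 to Pdgfra was 0.123, 0.0661, 0.387 and 0.269 in GSC1 and 0.121, 0.331 and 0.263 in GSC2, so GSC1 replicates 1 and 2 and GSC2 replicate 1 were low. That of Cspg4 to Pdgfra was 0.452, 0.575, 0.352 and 0.263 in GSC1 and 0.492, 0.326 and 0.295 in GSC2, with the same 3 tumours high. The ratio of Bcas1 to the myelin gene Mbp was lowest in the 3 short-biased libraries, at 0.0908, 0.105, 0.0237 and 0.0367 in GSC1 and 0.113, 0.0584 and 0.0378 in GSC2. None of the 5 ratios passed between the lines (exact permutation adjusted p = 0.771 for each, where 35 divisions of the tumours allow a smallest unadjusted p of 0.0286).

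Most other genes of the lineage also had lower means in GSC1, and 0 passed edgeR's test with no covariate. Of 11 further progenitor genes tested 8 had negative folds, with a median log2 fold change of -0.56. Matn4, a matrix gene of progenitors, averaged 16.4 ± 8.96 CPM in GSC1 against 30.2 ± 12.1 CPM in GSC2. Cspg5 was at 92.5 ± 44.2 CPM in GSC1 against 157.7 ± 78.8 CPM in GSC2, and the protocadherin gene Pcdh15 at 3.43 ± 1.04 CPM in GSC1 against 5.81 ± 2.16 CPM in GSC2. Of 13 further proneural genes 11 were negative (median -0.27), among them Ncan, which encodes the matrix proteoglycan neurocan, at 137 ± 35.3 CPM in GSC1 against 250 ± 141 CPM in GSC2 and the glutamate receptor gene Gria2 at 53.8 ± 21.2 CPM in GSC1 against 89.97 ± 38.0 CPM in GSC2. In edgeR with the length offset and the brain score, 1 of these 13 proneural genes was called lower in GSC1, beside 1.37% of all genes. With the myelin score 3 of the 13 were, beside 3.35% of all genes. Of 10 genes of committed oligodendrocytes 7 were negative (median -0.45). Fyn, a kinase gene of myelination, was at 148, 150, 135 and 115 CPM in GSC1, against 216, 198 and 195 CPM in GSC2, with no overlap between the lines (log2 fold change -0.57, SE 0.20, edgeR adjusted p = 0.999886). Tcf7l2 was at 14.5, 18.2, 5.64 and 6.57 CPM in GSC1, against 24.6, 97.4 and 10.4 CPM in GSC2, where GSC2 replicate 2 stood far above the rest. Rras2, a Ras family gene, did not overlap in the other direction, at 38.0 ± 6.72 CPM in GSC1 against 28.8 ± 0.957 CPM in GSC2. The 11 mature oligodendrocyte genes were split, 5 positive and 6 negative (median -0.02), with Mobp at 394 ± 398 CPM in GSC1 against 601 ± 281 CPM in GSC2, Opalin at 14.6 ± 16.9 CPM in GSC1 against 21.1 ± 10.9 CPM in GSC2 and Ermn at 68.8 ± 84.9 CPM in GSC1 against 89.0 ± 45.8 CPM in GSC2.

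Genes for PDGF ligands and for partners of PTPRZ1 did not follow one direction. Pdgfc, a PDGF ligand gene, was at 27.99, 31.2, 43.9 and 22.2 CPM in GSC1, against 12.4, 10.7 and 15.5 CPM in GSC2, with no overlap (log2 fold change 1.28, SE 0.31, edgeR adjusted p = 0.618), and DESeq2 called it (adjusted p = 0.00811). Pdgfa, which encodes PDGF-A, was at 64.3 ± 28.5 CPM in GSC1 against 50.5 ± 4.68 CPM in GSC2, and Pdgfd at 15.5 ± 11.8 CPM in GSC1 against 12.1 ± 1.77 CPM in GSC2. Folds were positive in 3 of the 4 PDGF ligand genes (median 0.35). Of the 3 genes for partners of PTPRZ1, Ptn, which encodes pleiotrophin, was at 56.4, 31.2, 185 and 179 CPM in GSC1, against 164, 255 and 272 CPM in GSC2, a log2 fold change of -1.03 (SE 0.62). Ptn passed in 2 alternatives, with the brain score (-1.13, edgeR adjusted p = 0.0414, beside 0.61% of all genes) and with the length offset and the brain score (-1.11, edgeR adjusted p = 0.0214, beside 1.37%). It did not pass with the length offset alone (-1.04, edgeR adjusted p = 0.999997), with the myelin score (-0.85, edgeR adjusted p = 0.0726), without the short-biased libraries (-2.25, edgeR adjusted p = 0.107) or in DESeq2 (adjusted p = 0.999826). With single tumours left out, the Ptn call with the brain score was kept only without GSC1 replicate 4 or GSC2 replicate 2, and the edgeR adjusted p ran between 0.0442 and 0.191. The Ptn call with both terms was lost without GSC1 replicate 2 (edgeR adjusted p = 0.0995), GSC1 replicate 3 (0.102) or GSC2 replicate 1 (0.121). In these fits 40, 37 and 2 of all genes were called. Mdk was at 23.5 ± 11.4 CPM in GSC1 against 17.4 ± 5.58 CPM in GSC2 and Cntn1 at 255 ± 252 CPM in GSC1 against 166 ± 103 CPM in GSC2. Of 5 inhibitors of oligodendrocyte differentiation 4 were negative (median -0.41), with Sox5 at 11.5 ± 2.00 CPM in GSC1 against 17.2 ± 4.23 CPM in GSC2, Hes1 at 56.1 ± 34.9 CPM in GSC1 against 74.6 ± 24.6 CPM in GSC2 and Id4 at 46.8 ± 41.6 CPM in GSC1 against 66.5 ± 4.17 CPM in GSC2.

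Markers of the other cells that can express Pdgfra, Cspg4 or Ptprz1 were given for all their lists, and their part in the values above was not tested. The summed level of 10 mural cell genes was 230.1 to 804 CPM in GSC1 and 191 to 315 CPM in GSC2, highest in GSC1 replicate 3, with 7 of 10 folds positive and Pdgfrb, the pericyte PDGF receptor gene, at 55.2 ± 11.57 CPM in GSC1 against 29.4 ± 8.56 CPM in GSC2, without overlap. Acta2 (49.0 ± 57.1 CPM in GSC1 against 9.27 ± 5.26 CPM in GSC2) and Tagln (98.7 ± 131 CPM in GSC1 against 15.0 ± 10.4 CPM in GSC2) were also higher on average in GSC1. Both were highest in GSC1 replicate 3, at 132 and 291 CPM. The mural genes Notch3, Kcnj8 and Abcc9 had negative log2 fold changes, of -0.30, -0.22 and -0.12. The 7 fibroblast genes summed to 433 to 2227 CPM in GSC1 and 444 to 549 CPM in GSC2, with 5 of 7 positive and Col3a1 at 304 ± 119 CPM in GSC1 against 164 ± 34.4 CPM in GSC2, Col1a1 at 298 ± 313 CPM in GSC1 against 105 ± 24.1 CPM in GSC2 and Col1a2 at 295 ± 341 CPM in GSC1 against 103 ± 29.8 CPM in GSC2. The 12 astrocyte genes summed to 2199.8 to 15223 CPM in GSC1 and 3018 to 7729 CPM in GSC2, with 10 of 12 positive; Gja1 was at 831 ± 152 CPM in GSC1 against 400.3 ± 120.1 CPM in GSC2, Aldoc at 1299 ± 1431 CPM in GSC1 against 527 ± 286 CPM in GSC2 and S100b at 124 ± 113 CPM in GSC1 against 73.3 ± 44.3 CPM in GSC2. The 11 neuron genes summed to 582 to 4739 CPM in GSC1 and 932 to 2480.5 CPM in GSC2, with 8 of 11 positive. No gene of these 4 lists was at 0 in all tumours. Of the remaining lists, folds were negative in 9 of 10 myeloid, 11 of 12 mitosis and 5 of 7 stem cell genes and positive in 7 of 8 endothelial genes, and 0 genes of any list passed edgeR's test with no covariate.

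For each of the 8 genes the 3 genes with the closest pattern were taken from 11884 genes with a mean of at least 5 CPM, by Pearson r of log2 CPM over the 7 tumours, as a description. Nkx6-2, a homeobox gene of oligodendrocytes, was closest to Olig1 (r = 0.990), at 5.45, 2.72, 31.6 and 12.6 CPM in GSC1, against 8.80, 19.8 and 29.0 CPM in GSC2, followed by S1pr3 (0.989) and Dhrs1 (0.984). Bcas1 was closest to Ptpro (0.981), Sorcs1 (0.974) and Ptn (0.973). Nkx2-2 was closest to Fam49a (0.972), the plexin gene Plxnb3 (0.972) and Dgki (0.959), and Gpr17 to the protocadherin gene Pcdh10 (0.997), Grid1 (0.987) and Mmp16 (0.987). Ptprz1 was closest to Nhsl2 (0.981), Clmn (0.977) and Alas2 (0.965), and Olig2 to Ckap4 (0.968), Pfkfb4 (0.954) and Bok (0.948). Pdgfra had the lowest such values, with Plxna4 (0.938), Arhgap23 (0.935) and Cacna1c (0.911). Cspg4 was closest to Map2k7 (0.992), Dhx57 (0.990) and Lif (0.988), a cytokine gene at 13.0, 18.8, 7.04 and 3.76 CPM in GSC1, against 12.6, 12.4 and 4.86 CPM in GSC2.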

How the data were processed

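RNA was extracted with Qiagen mini columns and made into libraries with an NEB kit, per the labels' protocols. The authors deposited, for each tumour, unnormalized read counts by Ensembl gene, made with TopHat2 2.0.11 and HTSeq, and the builds mm9 and dm3 are named without a role, per the submitters' processing notes. How HTSeq was set is not given in the sources. The 5 summary lines of each table (no gene, ambiguous, not unique) were left out; the no-gene line held 6.19 to 14.2% of listed reads. Symbols came from GENCODE M21 for 32897 of 37620 identifiers, and longest transcripts from the same release.

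Groups and replicate numbers came from the sample titles. The series calls the tumours independent. Counts were tested with edgeR 4.0.16 in R 4.3.3 (TMM, filterByExpr, robust quasi-likelihood fit, GSC1 over GSC2, Benjamini-Hochberg over all genes, threshold 0.05); the SE is the fold over the root of the test's F. Correlations used log2 CPM with a prior count of 2, and ratios an added 0.5 CPM, with exact permutation tests in Python 3.11.15. The alternatives were DESeq2 1.42.0, limma-voom (limma 3.58.1), factors by RLE or upper quartile, dropping the filter or setting it at a mean of 5 CPM, a replicate block, a brain score covariate, a loess length offset, and tumours left out. On simulated counts the edgeR test with no covariate recovered 0% of 2-fold, 20% of 4-fold, 68% of 8-fold and 86% of 16-fold changes, with 1 false call. No library was a copy of another (lowest chi-square per degree of freedom 66.5).

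The 8 genes and all lists were chosen with earlier results of these data known. Named genes are the 8, up to 3 per list by smallest p and the 3 of closest pattern. Sox2, Lims2, Notch3, Kcnj8 and Abcc9 were named after their values were seen. Promoter windows came from RefSeq (GRCm38.p6), and no coordinate of the files was used.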

Additional observations from a re-analysis of the deposited data

How the results depend on the processing

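Across 19 alternatives, Olig1, Olig2, Nkx2-2, Ptprz1 and Bcas1 kept a negative log2 fold change of GSC1 over GSC2, and Bcas1 passed in 1 of them (-0.90 with the length offset and the brain score); the cause was not tested. Sizes depended on single tumours: with 1 left out, Olig1 ran between -1.03 (without GSC1 replicate 3) and -0.22 (without GSC2 replicate 3), Olig2 between -0.53 (GSC2 replicate 1) and -0.18 (GSC2 replicate 3), Nkx2-2 between -1.44 (GSC1 replicate 3) and -0.75 (GSC2 replicate 2), Ptprz1 between -1.01 (GSC1 replicate 4) and -0.44 (GSC2 replicate 2) and Bcas1 between -1.30 (GSC1 replicate 3) and -0.58 (GSC1 replicate 2). The count of all genes called was 0, 1 with no filter, 1 in limma-voom, 192 in DESeq2, 98 with the brain score, 220 with the length offset and the brain score, 55 without the 3 short-biased libraries and 538 with the myelin score, an alternative chosen after seeing the data; it was 0 without any single tumour. The count of the 8 genes called was 1 with the length offset and the brain score, and 0 otherwise.

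Cspg4 turned to -0.0089 with the brain score, -0.083 with the myelin score, and ran between -0.11 (without GSC1 replicate 2) and 0.37 with single tumours left out, -0.11 also without GSC2 replicate 3. Pdgfra turned to 0.050 with the replicate block, 0.11 with the length offset and 0.14 with the offset and the brain score, and ran between -0.21 and 0.22 (without GSC2 replicate 2) with single tumours left out, 0.03 without GSC1 replicate 4. Gpr17 ran between -0.86 and 0.37, positive without GSC2 replicate 2.

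Differences in log2 ratio that changed sign were Cspg4 over Pdgfra (-0.059 without GSC1 replicate 2, -0.02 without GSC2 replicate 3; up to 0.34 with other tumours left out), Gpr17 over Pdgfra (0.10 without GSC1 replicate 2; down to -0.79) and Bcas1 over Mbp (0.16 without GSC1 replicate 3, 0.19 without GSC2 replicate 1, 0.27 without the short-biased libraries; down to -0.60). Ratio tests on fewer tumours cannot reach 0.05.

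The count of relations with list scores that passed was 1, 0 with centring (where no lone relation or pair can pass), and 0 to 1 with single tumours left out. The count of pairs was 2, 0 with centring, and 0 to 1 with single tumours left out. All 3 relations that passed kept their sign, with r between 0.842 and 0.989 over the alternatives.

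The replicate numbers are not said to pair the tumours. Same-numbered tumours had correlations of deviations of 0.583, -0.306 and 0.409, and the replicate block called 0 genes, as did the fit without it. Of the 6 numbered tumours, 3 correlated best with the own number.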
